A study of Mus musculus with 6 samples.

Results

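Aquaporins are membrane channels that let water through, and a subgroup of them, the aquaglyceroporins, also lets glycerol through. In the testis and its ducts, fluid is secreted around developing germ cells and taken up again downstream. Spermatids give up most of their water as they condense, and sperm take up glycerol as a fuel. The 9 aquaporin genes described here (Aqp1, Aqp2, Aqp3, Aqp4, Aqp5, Aqp7, Aqp8, Aqp9 and Aqp11) were taken by symbol from a table of 38715 genes, as the members of the family tied to the testis and neighbouring ducts. They were selected on the family name with the Middle and Control RPKM of these libraries already in view. Their values in that comparison are therefore a description, with no test resting on them.

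The data were RNA-seq values of mouse testis from 3 libraries titled Middle and 3 titled Control. Middle was read as the MES-exposed group that the design names, because the titles hold no other group, and Control as its control group. The sources used here give no dose or timing of the exposure and no strain or age of the mice. The labels do not state whether each library is a different mouse, and a p-value therefore covers library-to-library spread, which may be technical. The level of a gene is given as RPKM, reads scaled to gene length and to the library's reads assigned to genes, as deposited by the authors.

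Reads summed over genes came to 46649138 to 56435498 in Middle libraries and 38820385 to 58389391 in Control libraries. A test across 15040 genes called 8 of them (limma-trend, adjusted p under 0.05). Spermatid genes marked the tissue as testis, with the protamine gene Prm2 at 12139 ± 780 RPKM in Middle and 12590 ± 403 RPKM in Control (SD, n = 3 each). Middle replicate 1 stood apart in base composition. Across genes, the Spearman correlation between GC content of transcripts and the deviation of a library's values was 0.446 there, 0.0282 and -0.0706 in Middle replicates 2 and 3, and -0.294 to -0.216 in Control. All 3 Middle values were above all 3 Control values, so group and base composition cannot be told apart.

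Of the 9 genes, 5 passed the filter on low values (a group mean of 1 RPKM or more in either group). They were Aqp7, Aqp11, Aqp8, Aqp9 and Aqp2. Aqp3, Aqp5, Aqp1 and Aqp4 did not pass it and were not tested. Aqp7, Aqp11, Aqp8 and Aqp9 together made up 93.7% to 96.3% of the summed RPKM of the 12 aquaporin family genes in the table.

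The promoters of Aqp7 and Aqp11, the family members with the highest levels, are shown because they differ most plainly among the expressed members in their CpG content. Each runs from 250 bases before to 50 bases after a transcription start (RefSeq, GRCm38.p6, read 5′ to 3′ on the gene's strand), with each CG pair in capitals. The Aqp7 window is chr4:41048087-41048386 on the minus strand, at the upstream one of both listed starts. The Aqp11 window is chr7:97738198-97738497 on the minus strand.
Aqp7: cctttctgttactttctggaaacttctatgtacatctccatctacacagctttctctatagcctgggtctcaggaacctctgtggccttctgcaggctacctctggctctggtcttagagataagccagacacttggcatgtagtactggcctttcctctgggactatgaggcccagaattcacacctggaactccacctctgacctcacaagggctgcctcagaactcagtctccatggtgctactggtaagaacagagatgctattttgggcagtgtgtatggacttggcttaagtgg
Aqp11: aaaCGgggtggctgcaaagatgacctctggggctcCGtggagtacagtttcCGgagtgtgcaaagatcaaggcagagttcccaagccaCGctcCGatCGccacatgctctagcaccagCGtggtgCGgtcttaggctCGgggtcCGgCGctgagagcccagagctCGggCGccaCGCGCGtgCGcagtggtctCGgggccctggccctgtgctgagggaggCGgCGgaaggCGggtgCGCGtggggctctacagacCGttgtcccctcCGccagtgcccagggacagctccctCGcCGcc
The Aqp7 window held 0 CG pairs and the Aqp11 window 27, where the median over 32851 mouse promoter windows of this length was 7. The downstream Aqp7 start had 3 CG pairs, the window of Aqp8 had 6, and both windows of Aqp9 had 1 and 4. Across 10 windows of 8 members, the motif TATAAA was found in 1 (Aqp3, 29 bases before the start), CCAAT in 0 and TGACG in 1 (Aqp2), searched on both strands. Aqp4 was left out of this search. These motifs occur in 13.6%, 37.4% and 20.8% of all windows. A match or its lack describes these letters and nothing further.

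Aqp7 encodes an aquaglyceroporin that is found in mouse spermatids and in the sperm tail. On GRCm39 it lies on chromosome 4 (41033074 to 41048139, minus strand), with 10 merged exons of 2828 bases in all. It was at 19.5, 21.2 and 20.7 RPKM in Middle replicates 1 to 3, against 28.6, 25.3 and 25.3 RPKM in Control replicates 1 to 3. Every Middle library was below every Control library. The means were 20.5 ± 0.86 RPKM in Middle and 26.4 ± 1.89 RPKM in Control (SD, n = 3 each), a ratio of 0.776. The log2 fold change on the log2(RPKM + 1) scale was -0.35 (SE 0.07), and Aqp7 was not among the called genes. As low or lower a change was seen for 676 of the 15040 tested genes, or 4.49%. In bulk tissue, fewer cells of a type and less RNA per cell cannot be told apart.

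Aqp11 encodes an unorthodox aquaporin of intracellular membranes. It lies on chromosome 7 (97373213 to 97387496, minus strand). It was at 11.2, 11.3 and 11.9 RPKM in Middle replicates 1 to 3, against 11.56, 11.54 and 11.58 RPKM in Control replicates 1 to 3. The Control values all lay within the range of the Middle values. The means were 11.5 ± 0.36 RPKM in Middle and 11.6 ± 0.0199 RPKM in Control (SD, n = 3 each), and the log2 fold change was -0.0091 (SE 0.06). The spread was 3.16% of the mean in Middle and 0.172% in Control, where counting error alone gives about 1.92% per library.

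Aqp8, a channel for water that also passes ammonia and hydrogen peroxide, was at 11.4, 9.27 and 10.4 RPKM in Middle replicates 1 to 3, against 7.50, 9.02 and 9.81 RPKM in Control replicates 1 to 3. The groups overlapped, since Control replicate 3 was above Middle replicate 2. The means were 10.3 ± 1.07 RPKM in Middle and 8.78 ± 1.17 RPKM in Control (SD, n = 3 each), with a log2 fold change of 0.22 (SE 0.11). Without Control replicate 1, the lowest library, the log2 fold change was 0.12. The gene lies on chromosome 7 (123061514 to 123067227, plus strand).

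Aqp9, an aquaglyceroporin best known from liver and from the epididymis, was at 4.74, 5.30 and 4.70 RPKM in Middle replicates 1 to 3. In Control replicates 1 to 3 it was at 5.16, 5.58 and 4.91 RPKM. The groups overlapped, and the means of 4.91 ± 0.34 RPKM in Middle and 5.22 ± 0.34 RPKM in Control (SD, n = 3 each) differed by less than 1 SD. The log2 fold change was -0.07 (SE 0.08). The gene lies on chromosome 9 (71017941 to 71075964, minus strand).

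Aqp2, the vasopressin-regulated water channel of the kidney collecting duct, was at 2.47, 1.30 and 0.974 RPKM in Middle replicates 1 to 3, against 1.27, 1.46 and 1.56 RPKM in Control replicates 1 to 3. Middle replicate 1 held the highest value and Middle replicate 3 the lowest of all 6. The reads behind them numbered 166, 86 and 78 in Middle and 96, 121 and 86 in Control. The log2 fold change was 0.05 (SE 0.19), and without Middle replicate 1 it was -0.19. Aqp2 lies on chromosome 15 (99476936 to 99482428, plus strand), 6234 bases from Aqp5, which in turn lies 6570 bases from Aqp6.

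**Figure D1:**
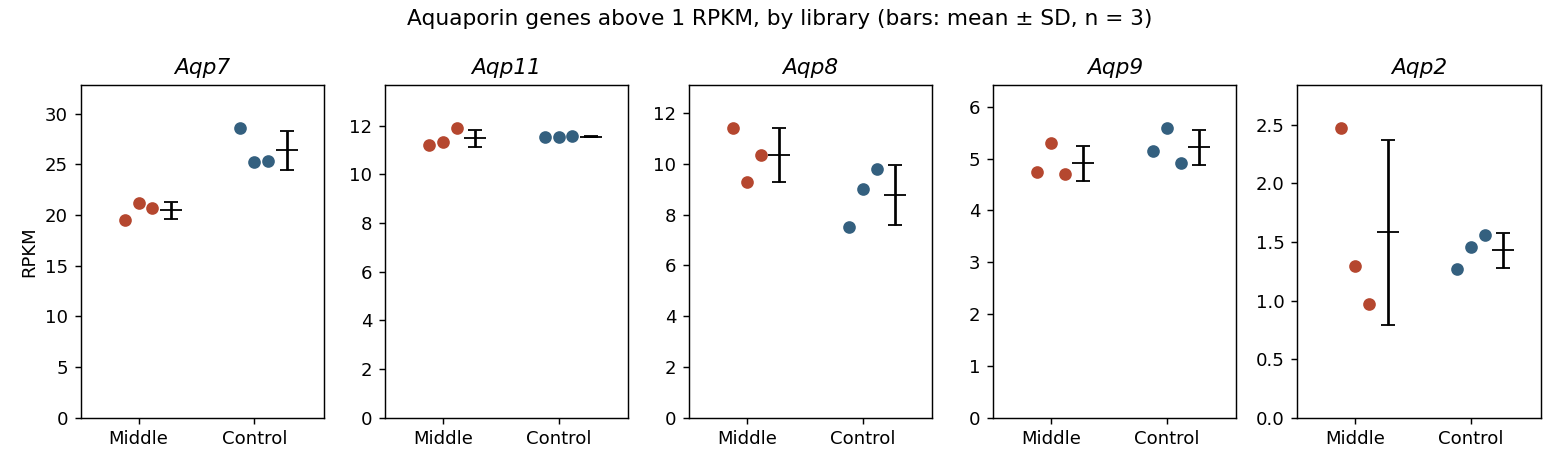
RPKM of the 5 aquaporin genes that passed the filter, by group, with each point 1 library and each bar the mean ± SD over 3 libraries. Aqp7 was at 19.5 to 21.2 RPKM in Middle and 25.3 to 28.6 RPKM in Control, the other genes overlapped, and Aqp2 in Middle replicate 1 stood at 2.47 RPKM.

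Of the 5 tested genes, 0 were called over all genes (limma-trend), where 0.0532% of all tested genes were called and 0.0465% were called lower in Middle. At an unadjusted p under 0.05 there was 1, Aqp7, where 20.7% of all tested genes were and 9.02% with a lower value in Middle. The groups did not overlap for 1 of the 5, again Aqp7, where this held for 29.3% of all tested genes, for 11.4% with Middle below Control and for 17.9% with Middle above. With limma-voom on recovered reads, 0 of 7 members were called, where 0.0419% of 23889 genes were, and 1 of 7 had an unadjusted p under 0.05, where 17.8% did. Of the 5 log2 fold changes 2 lay above 0 and 3 below, with a median of -0.0091, against 0.03 over all genes tested. The members were chosen with this comparison known, so nothing is read from these counts.

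The members with low values included Aqp3, an aquaglyceroporin known from skin and kidney. It was at 0.335, 0.563 and 0.407 RPKM in Middle replicates 1 to 3 and 0.542, 0.524 and 0.394 RPKM in Control replicates 1 to 3. All 6 libraries held more than 6 reads of it, and the groups overlapped. Aqp3 lies on chromosome 4 (41092722 to 41098183, minus strand), on the same strand as Aqp7.

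Aqp5, a water channel of salivary and lung epithelium, was at 0.293, 0.115 and 0.198 RPKM in Middle replicates 1 to 3 and 0.13, 0.171 and 0.0595 RPKM in Control replicates 1 to 3. It had 79 reads over the 3 Middle libraries and 50 over the 3 Control libraries. Its highest value, like that of Aqp2, was in Middle replicate 1.

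Aqp1, the water channel of red blood cells, capillaries and efferent ducts, was at 0.0161, 0.0653 and 0.0944 RPKM in Middle replicates 1 to 3. In Control replicates 1 to 3 it was at 0.0427, 0.0913 and 0 RPKM. A count of 0 allows up to 3 fragments, taken as 6 reads because both mates appear to be counted, or 0.0391 to 0.0588 RPKM for this gene. The number of libraries above 6 reads was 3 of 6. Aqp4, the water channel of astrocytes, had 2 reads over the 3 Middle libraries and 6 over the 3 Control libraries, and no library reached the limit of 0.0165 to 0.0248 RPKM. The few reads of Aqp4 are a trace, too few to compare the groups at this depth.

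Outside the 9 genes, the lens channel gene Mip and the genes Aqp6 and Aqp12 were also low. Mip had 4 reads in Middle and 8 in Control, Aqp6 had 2 and 0, and Aqp12 had 10 and 10, over 3 libraries each. None of these 3 genes passed the filter.

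**Figure D2:**
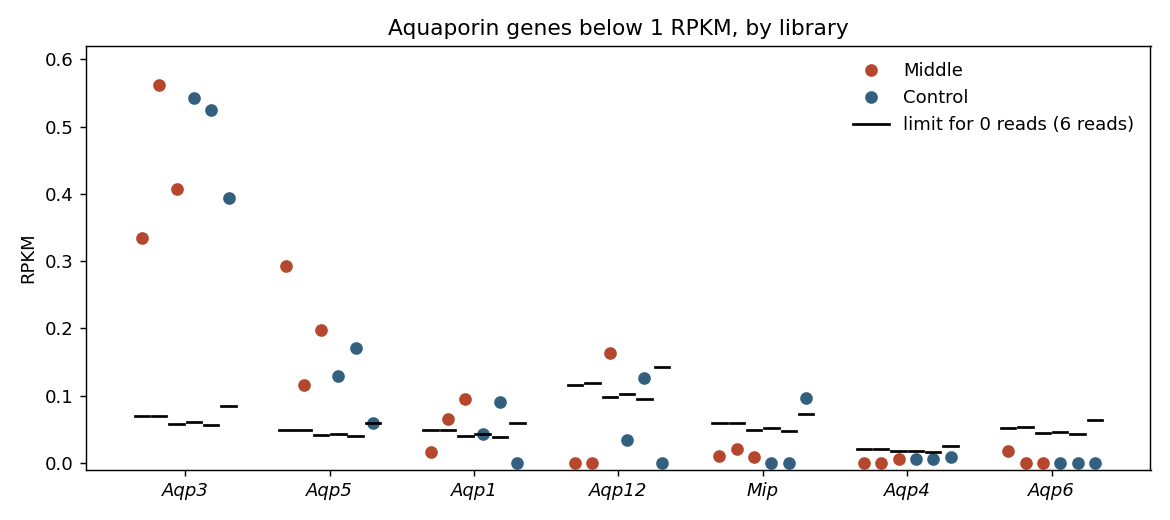
RPKM of the 7 aquaporin family genes below 1 RPKM, with each point 1 library and each short black line the level that 6 reads would give for that gene in that library. Aqp3 lay above its line in all 6 libraries, Aqp1 in 3 of 6, and Aqp4 in none.

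The members were also ordered by level. By mean RPKM over 6 libraries, Aqp7 (23.4 ± 3.49, SD, n = 6) came first, followed by Aqp11 (11.5 ± 0.23), Aqp8 (9.56 ± 1.32), Aqp9 (5.06 ± 0.35), Aqp2 (1.51 ± 0.51), Aqp3 (0.461 ± 0.094), Aqp5 (0.161 ± 0.0802), Aqp1 (0.0516 ± 0.039) and Aqp4 (0.0042 ± 0.0034). The order was read from these same values, so it is a description. The permutation test of neighbours given further below is one too, because its pairs came from these values. Of the 8 pairs of neighbours, the higher gene was above the lower one in 6 of 6 libraries for 6 pairs, and for 5 of these the ranges over libraries did not overlap. The ranges of Aqp5 and Aqp1 overlapped, although Aqp5 was higher within each of the 6 libraries. Aqp11 was above Aqp8 in 5 of 6 libraries and Aqp1 above Aqp4 in 5 of 6, and both pairs overlapped in range.

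The top of this order depended on the gene length used. The deposited length of Aqp11, 9418 bases, is the sum of 3 merged exons, of which the longest has 5798 bases. The longest protein-coding transcript of Aqp11 in GENCODE M21 has 3737 bases. In reads, Aqp11 was the most abundant member of the family, with 16305 reads over the 3 Middle libraries and 16396 over the 3 Control libraries, against 8717 and 11271 for Aqp7. If all reads are scaled to the longest coding transcript, Aqp11 came to 29.0 ± 0.59 RPKM and Aqp7 to 26.2 ± 3.91 RPKM (SD, n = 6 libraries each). Aqp11 was then above Aqp7 in 5 of 6 libraries, and their ranges overlapped. Where along Aqp11 the reads lay was not tested, so the order of these 2 genes per length is uncertain.

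**Figure D3:**
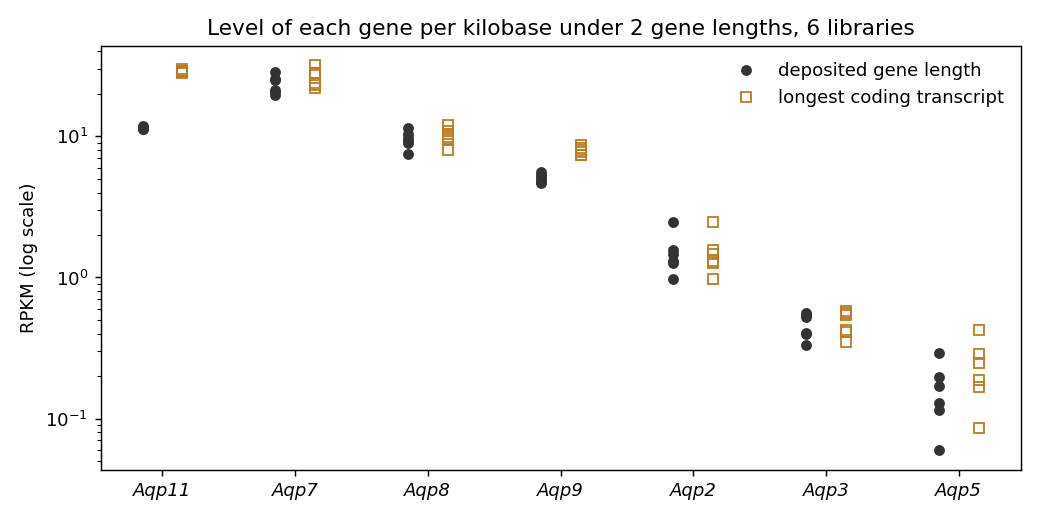
RPKM on a log scale of 7 aquaporin genes in 6 libraries, with filled circles scaled to the deposited gene length and open squares to the longest coding transcript. The length choice moved the mean of Aqp11 to 29.0 RPKM, against 11.5 RPKM as deposited, and that of Aqp2 not at all.

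The summed level of the 12 family genes was 50.05, 49.2 and 49.5 RPKM in Middle replicates 1 to 3, against 54.8, 53.8 and 53.7 RPKM in Control replicates 1 to 3. In this sum every Middle library was below every Control library. Without Aqp7 the sum was 29.1 ± 1.30 RPKM in Middle and 27.7 ± 1.29 RPKM in Control (SD, n = 3 each), and the groups overlapped. Aqp7 held 41.3% ± 2.1 of the summed RPKM in Middle and 48.7% ± 2.94 in Control (SD, n = 3 each). Aqp8 held 20.9% ± 1.97 in Middle and 16.2% ± 2.33 in Control, and Aqp11 held 23.2% ± 0.81 in Middle and 21.4% ± 0.24 in Control (SD, n = 3 each). For these 3 shares, which add up to most of 1 sum and so move against each other, the groups did not overlap.

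The aquaglyceroporins Aqp3, Aqp7 and Aqp9 together held 52.1% ± 2.95 of the summed RPKM in Middle and 59.3% ± 2.89 in Control (SD, n = 3 each). This difference lay in Aqp7. Aqp9 held 9.91% in Middle and 9.64% in Control, and Aqp3 held 0.878% and 0.899%, with overlap for both genes. The ratio of Aqp7 to Aqp11 within a library was 1.74, 1.87 and 1.74 in Middle replicates 1 to 3, against 2.47, 2.19 and 2.19 in Control replicates 1 to 3. The ratio of Aqp7 to Aqp9 was 4.004 to 4.41 in Middle and 4.52 to 5.54 in Control. These ratios within a library do not depend on how libraries are scaled to each other. In both of them, which have Aqp7 as numerator, the groups did not overlap. The ratio of Aqp8 to Aqp11 was 0.819 to 1.02 in Middle and 0.649 to 0.847 in Control, so its groups overlapped. How often ratios of other gene pairs were apart was not computed. The ratios with Aqp7 are not independent of the values of Aqp7 given above.

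**Figure D4:**
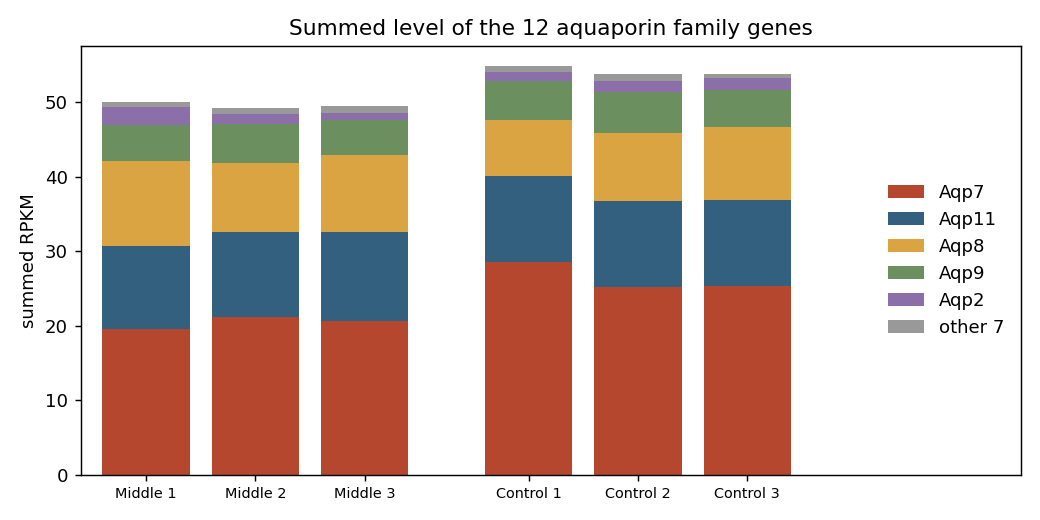
Summed RPKM of the 12 aquaporin family genes in each library, stacked by gene, with Middle libraries left of Control libraries. The sums were 49.2 to 50.05 RPKM in Middle and 53.7 to 54.8 RPKM in Control, and the Aqp7 segment was the tallest in every library.

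Glycerol that enters a cell is phosphorylated by a glycerol kinase and can be oxidised by glycerol-3-phosphate dehydrogenases. Of 14 genes listed for glycerol handling, 10 were tested, 7 lay above 0 and 3 below, and 0 were called (limma-trend), with a median log2 fold change of 0.03, equal to that over all genes to 2 decimals. The members with the highest levels were the glycerol-3-phosphate phosphatase gene Pgp (176 ± 13.4 RPKM in Middle and 170.5 ± 2.15 RPKM in Control) and the acyltransferase gene Gpat4 (140.6 ± 8.41 and 137.5 ± 2.55 RPKM, SD, n = 3 each). For 3 of the 10 tested, Middle and Control values were fully apart, against 29.3% of all tested genes, so this count is at the background. These 3 and Gpd1 were chosen for mention after their values were seen. Gk2, a glycerol kinase of germ cells, was at 123, 128 and 131 RPKM in Middle replicates 1 to 3, against 145, 141 and 134 RPKM in Control replicates 1 to 3. Gpd2, the mitochondrial glycerol-3-phosphate dehydrogenase, was at 41.9, 52.1 and 43.0 RPKM in Middle replicates 1 to 3, against 66.4, 58.7 and 59.2 RPKM in Control replicates 1 to 3. Both were lower in every Middle library, while the lipase gene Mgll was higher in every Middle library (11.1 ± 1.48 RPKM, against 9.08 ± 0.44 RPKM in Control). Gpd1, the cytosolic glycerol-3-phosphate dehydrogenase, was at 6.37 ± 0.89 RPKM in Middle and 4.90 ± 0.47 RPKM in Control (SD, n = 3 each), and its groups overlapped.

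Of 16 genes of cell volume control and anion channels, 11 were tested, 7 above 0 and 4 below, with a median of 0.02 and 0 called (limma-trend). Its most abundant members were the kinase gene Stk39 (61.6 ± 5.89 RPKM in Middle and 67.8 ± 1.64 RPKM in Control) and Lrrc8b, a subunit of the volume-regulated anion channel (37.6 ± 2.32 and 40.4 ± 0.9998 RPKM, SD, n = 3 each). Lrrc8b values were fully apart between groups, with Middle below, and so were those of Lrrc8c and Clns1a, with Middle above. That is 3 of 11, against 29.3% of all tested genes. Lrrc8c passed the filter only through Middle, where it was higher (1.01 RPKM, against 0.857 RPKM in Control), so nothing is read from its direction. Lrrc8c, Clns1a and, below, Cftr were picked for mention after their values were seen. Clns1a is the gene next to Aqp11, 3209 bases away. It was at 18.2 ± 0.84 RPKM in Middle and 16.6 ± 0.33 RPKM in Control (SD, n = 3 each).

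Of 12 genes for ion transport in efferent ducts, 11 were in the table and 5 were tested, 1 above 0 and 4 below, with a median of -0.05 and 0 called (limma-trend). The carbonic anhydrase gene Car2 was at 50.8 ± 2.34 RPKM in Middle and 53.5 ± 2.16 RPKM in Control (SD, n = 3 each), and the groups overlapped. The chloride channel gene Cftr was lower in every Middle library, at 0.896 ± 0.251 RPKM in Middle and 1.13 ± 0.0455 RPKM in Control (SD, n = 3 each). It passed the filter only through Control, where it was higher, so nothing is read from its direction. Its Middle values were 0.606, 1.06 and 1.02 RPKM in replicates 1 to 3.

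Markers of cells that could hold these channels were read beside them. Over the 14 lists other than the aquaporins, 120 of 176 genes were tested and 0 were called (limma-trend), while 48 had an unadjusted p under 0.05, or 40% of them, against 20.7% of all tested genes. With limma-voom 0 of 155 were called and 61 had an unadjusted p under 0.05, where 17.8% of all genes in that test did. The lists differed, with 0 of 11 such genes by limma-trend in the volume list and 10 of 14 in the ribosomal protein list. The lists were chosen with earlier results of these data known, so nothing is read from these shares. Of 16 round spermatid genes 12 lay below 0 (median -0.11), and of 16 elongating spermatid genes 12 lay below 0 (median -0.13). Over all genes tested, 6628 of 15040 lay below 0 and the median was 0.03. Without Control replicate 1 the median of the elongating list was -0.09. Their summed levels were 988 to 1052 RPKM in Middle and 1099 to 1141 RPKM in Control for round spermatids. For elongating spermatids they were 30500.1 to 32973 RPKM in Middle and 32335 to 35640 RPKM in Control, so the groups overlapped. No marker of either list was at 0 in every library. The most abundant ones were the kinase gene Tssk2 (262 ± 22.9 RPKM in Middle and 321 ± 26.8 RPKM in Control), the glycolytic gene Pgk2 (213 ± 8.2 and 222 ± 5.72 RPKM), Prm2 and the transition protein gene Tnp2 (6661 ± 877 and 7321 ± 448 RPKM, SD, n = 3 each). The part of spermatid number in the level of Aqp7 was not tested.

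Ribosomal protein genes, listed as a sign of RNA quality, all lay above 0 (14 of 14, median 0.28), where 8412 of all 15040 tested genes did. Without Middle replicate 1 their median was 0.15. They had summed levels of 1730 to 2229 RPKM in Middle and 1550 to 1653 RPKM in Control. Rpl19 was at 384 ± 74.1 RPKM in Middle and 310 ± 13.1 RPKM in Control, and Rpl32 at 258 ± 29.2 and 224 ± 2.99 RPKM (SD, n = 3 each). After the dependence on GC content was taken out, the log2 fold change of Aqp7 was -0.36, and with Middle replicate 1 left out it was -0.32. With GC taken out, that of Aqp8 was 0.17, of Aqp9 -0.06, of Aqp2 -0.06 and of Aqp11 0.03, the last 2 with changed sign. Group and base composition cannot be told apart here, so this removal cannot separate them. The part of RNA quality in the levels of the aquaporins was not tested.

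**Figure D5:**
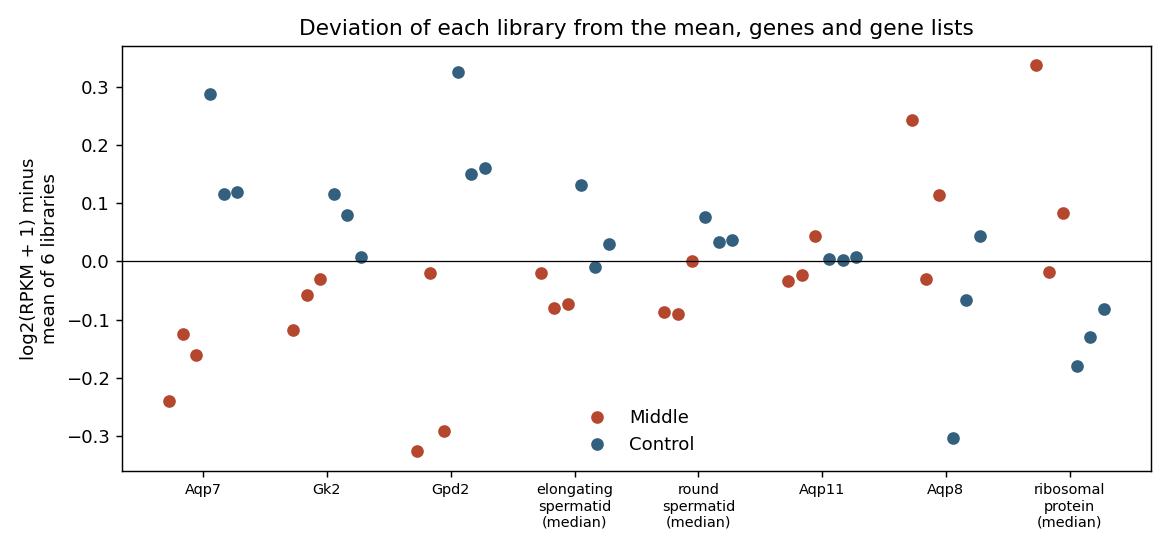
Deviation of log2(RPKM + 1) in each library from the mean of all 6, for Aqp7, Gk2, Gpd2, Aqp11 and Aqp8, and as list medians for elongating spermatid, round spermatid and ribosomal protein genes, with Middle libraries left of Control libraries. Aqp7, Gk2 and Gpd2 were below 0 in all 3 Middle libraries, while Aqp11 stayed within -0.03 and 0.04. Gk2 and Gpd2 were picked after their values were seen. Of the 10 tested genes for glycerol handling, 7 had a log2 fold change above 0, and these are not shown.

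Somatic cells and other tissues were covered by further lists. Of 12 tested Sertoli cell genes 11 lay above 0 (median 0.14, summed level 306 to 329 RPKM in Middle and 286 to 296 RPKM in Control). Of 10 tested Leydig cell genes 7 lay above 0 (median 0.16, 500 to 740 RPKM in Middle and 505 to 641 RPKM in Control). The Leydig median rested on single libraries, since it was 0.03 without Middle replicate 1, 0.02 without Middle replicate 2, 0.30 without Middle replicate 3, 0.04 without Control replicate 2 and 0.24 without Control replicate 3. Of 8 peritubular myoid genes 7 lay above 0 (median 0.23, 242 to 283 RPKM in Middle and 245 to 267 RPKM in Control), and of 12 spermatocyte genes 8 did (median 0.02, or 0.11 without Middle replicate 1, with sums of 403 to 467 RPKM in Middle and 445 to 460 RPKM in Control). The Sertoli list was led by the clusterin gene Clu (141 ± 8.13 RPKM in Middle and 137 ± 4.48 RPKM in Control) and Aard (69.1 ± 8.25 and 61.0 ± 3.91 RPKM, SD, n = 3 each). In Leydig genes the fatty acid binding protein gene Fabp3 (304 ± 107 and 261 ± 39.7 RPKM) and the hormone gene Insl3 (237 ± 2.87 and 213 ± 20.7 RPKM) came first, given for Middle and then Control. The smooth muscle actin gene Actg2 was at 139.6 ± 7.69 RPKM in Middle and 159.6 ± 13.5 RPKM in Control, and the myosin light chain gene Myl9 at 52.8 ± 6.68 and 41.9 ± 2.67 RPKM. Of spermatocyte genes, the synaptonemal complex gene Sycp3 was at 118 ± 29.5 RPKM in Middle and 142 ± 8.21 RPKM in Control, and the cyclin gene Ccna1 at 75.1 ± 5.71 and 61.8 ± 3.67 RPKM (SD, n = 3 each). No marker of these lists was at 0 in every library.

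Markers of blood vessels and red blood cells, where Aqp1 is known, were also read. The 12 endothelial genes summed to 4.65 to 5.70 RPKM in Middle and 4.18 to 4.37 RPKM in Control, and 1 of them was tested, the tight junction gene Cldn5 (1.43 ± 0.29 RPKM in Middle and 0.972 ± 0.194 RPKM in Control, SD, n = 3 each). Cldn5 passed the filter only through Middle, where it was higher. Egfl7 came next, at 0.769 ± 0.0772 and 0.931 ± 0.153 RPKM. The 7 red blood cell genes in the table summed to 12.2 to 17.2 RPKM in Middle and 11.2 to 13.8 RPKM in Control, with all 3 tested above 0 (median 0.13). Without Middle replicate 1 this median was -0.03, without Middle replicate 2 it was 0.26, and without Control replicate 1 it was 0.07. The heme synthesis gene Alas2 led them, at 5.68 ± 0.05 RPKM in Middle and 4.28 ± 0.58 RPKM in Control, and the globin gene Hbb-bs was at 4.497 ± 1.16 and 3.97 ± 0.36 RPKM (SD, n = 3 each). Fat cells, where Aqp7 is also known, were represented by 10 genes that summed to 3.20 to 3.45 RPKM in Middle and 3.91 to 4.33 RPKM in Control. Adipoq made up most of these sums. It alone of the 10 was tested, at 2.09 ± 0.15 RPKM in Middle and 2.89 ± 0.13 RPKM in Control (SD, n = 3 each). The lipid droplet gene Plin1 was at 0.347 ± 0.0467 RPKM in Middle and 0.279 ± 0.0182 RPKM in Control, with every Middle library above every Control library. The remaining low genes of this list went both ways, some fully above Control in Middle as Plin1 was, others overlapping or below. The sums therefore mainly describe Adipoq. The part of these cells in the levels of Aqp1 and Aqp7 was not tested.

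Markers of the epididymis and efferent ducts, where Aqp9, Aqp1 and Aqp2 are known, were near 0. Of 14 listed genes 9 were in the table, and 8 of these reached at most 0.378 RPKM in any library. Their sum, Rnase10 included, was 1.93 to 3.13 RPKM in Middle and 1.84 to 2.04 RPKM in Control. Rnase10, a gene of the proximal epididymis, was the only one above 1 RPKM, at 2.38, 1.75 and 1.36 RPKM in Middle replicates 1 to 3 and 1.46, 1.48 and 1.58 RPKM in Control replicates 1 to 3. The beta-defensin gene Defb48 was next, at 0.239 ± 0.0938 RPKM in Middle and 0.267 ± 0.136 RPKM in Control. Over the 6 libraries Rnase10 had its extremes in the same libraries as Aqp2, with Middle replicate 1 highest and Middle replicate 3 lowest. This match was picked out after the values were seen. Defb48 did not share it, with its highest value in Control replicate 1 (0.378 RPKM). Middle replicate 1 was also the library that stood apart in base composition. Duct tissue in the libraries as a source of Aqp2 reads was not tested.

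The genes whose pattern over the 6 libraries was closest to the most abundant members were found by the root mean square difference of log2(RPKM + 1) deviations, among 10602 tested genes with an established symbol. For Aqp7 they were the granzyme gene Gzmn (0.0254) and Iqcf5 (0.0271), where the median over genes was 0.231. Gzmn was at 8.34, 9.18 and 8.66 RPKM in Middle replicates 1 to 3, against 12.1, 10.7 and 10.4 RPKM in Control replicates 1 to 3. For Aqp11 they were Pwwp2a (0.0121) and Btf3l4 (0.0132), where the median was 0.107. Aqp11 itself deviated from its mean by 0.0245, so genes that hardly varied were closest to it.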

How the data were processed

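The build was GRCm39 and trimming was done with fastp 0.23.0, per the submitters' processing notes, from 2400 ng of total RNA per library, per the labels' protocols. The sources used here do not name the aligner, the counter or its treatment of strand and of multiply matching reads, nor whether the kit kept strand. The table as deposited gives RPKM that the authors had computed, with exon coordinates and a merged exon length, per the file headers. RPKM times length gave whole numbers of reads, after dividing by the smallest step of the library, for 100% of values (tolerance 0.001), so reads were recovered. Of genes with few reads, 73.3% to 74.7% had an even number, as when both mates are counted. For a gene of 1 kb, 1 read was worth 0.0171 to 0.0258 RPKM. Limits for a count of 0 (6 reads) cover counting error only. No other gene shared an exon base with any of the 9 members.

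Libraries were grouped by title. Pairs of libraries within a group differed by more than sampling noise (chi-square per degree of freedom 3.13 to 17.2). Genes averaging 1 RPKM or more in either group were tested on log2(RPKM + 1) by limma 3.58.1 (R 4.3.3), with the prior variance following the mean level, two-sided, with Benjamini-Hochberg adjustment over 15040 genes and a threshold of 0.05. Fold changes on this scale understate those of low genes. The fit was also run on simulated reads. These lacked the GC dependence and the counting of both mates seen here, so nothing about these libraries is read from them. Neighbours in level were compared by the number of libraries with the same order and by an exact sign-flip permutation test, whose pairs and direction came from the values compared, so that it serves only as a description. GC content and transcript lengths came from GENCODE M21 by symbol (93.1% of tested genes had a GC value), promoters from RefSeq. The members, lists and tests were chosen with earlier results of these data known. Named genes were the members, the rest of the family, the 2 most abundant genes of each list, and the 2 genes closest in pattern to the 2 most abundant members. Of these, 1 gene is not reported here. Gk2, Gpd2, Gpd1, Mgll, Lrrc8c, Clns1a and Cftr fall outside this rule and were picked after their values were seen. The alternatives were a pseudocount of 0.1, no filter, a filter of 5 RPKM, scaling by upper quartiles or by median-of-ratios, limma-voom (at least 10 reads in 3 libraries), a replicate block, leaving out each library, removal of the GC trend (loess, span 0.5), and linear differences for the order of levels.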

Additional observations from a re-analysis of the deposited data

How the results depend on the processing

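The number of aquaporins called was 0 under all 14 alternatives of the gene test, and the number called among the other listed genes was 0 as well. The number of genes called over all was 8, and it was 0 with no filter (4204 genes at an unadjusted p under 0.05, 38715 tested) and 0 with the replicate block (2267 at an unadjusted p under 0.05, limma). Leaving out 1 library gave 0 to 3 calls: 1 when Middle replicate 1 was left out, 3 when Control replicate 1 was, and 0 for each of the others. The other alternatives gave 7 to 10. The log2 fold change of Aqp7 stayed between -0.38 and -0.29 and that of Aqp8 between 0.12 and 0.29 under the 14 alternatives, Aqp9 between -0.12 and -0.03, while Aqp2 (-0.19 to 0.22) and Aqp11 (-0.04 to 0.03) changed sign under some. Medians of the round and elongating spermatid, Sertoli, Leydig, peritubular and ribosomal protein lists kept their sign under the alternatives run. So did those of the endothelial and duct lists, but each rested on 1 tested gene in the main fit (Cldn5 and Rnase10). Cldn5 passed the filter only through Middle, where it was higher. With no filter, the endothelial median was 0.048 over 12 genes and the duct median 0.009 over 9. Medians of the glycerol (-0.04 to 0.05), volume (-0.08 to 0.11), ion transport (-0.08 to 0.05), spermatocyte (-0.0054 to 0.11), red blood cell (-0.03 to 0.35) and fat cell (-0.45 to 0.29) lists changed sign under some. The labels do not state whether the replicate numbers pair the libraries. Deviations of same-numbered libraries from their group means correlated at -0.153, -0.119 and 0.0054. Such deviations sum to 0 within each group, so these values cannot decide whether libraries were paired. The block changed no aquaporin call. By the sign-flip criterion, a description since the order came from the same values, 6 of 8 neighbours in level were apart, and also with a pseudocount of 0.1 and with linear differences. The number was 0 with the longest coding transcript as length, an alternative chosen after seeing the data, since 4 pairs then reached the smallest p and their adjusted p was 0.0625. With 5 libraries no p under 0.0625 is possible, and 6 to 7 of the 8 neighbours kept 1 sign in every library left. Aqp1, Aqp4 and the 3 other family genes are limited by depth.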
